A study of Mus musculus with 20 samples.

Results

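The collagen genes are the genes whose symbol is Col, a type number, the letter a and a chain number, as in Col3a1. The deposited tables list 43 of them among 25052 genes, and 22 of them are among the 12775 genes that passed the filter for testing, at least 0.5 FPKM in at least 5 libraries. FPKM is the fragment count scaled by transcript length and library size, so it can be compared between genes. All 43 are accounted for, low values included. By the structure of their products they were sorted into 11 fibrillar collagens, 8 basement membrane collagens, 5 beaded filament collagens of type VI, 9 fibril-associated collagens, 3 short-chain network collagens, 4 transmembrane collagens and 3 others.

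Left ventricles of 20 male mice were profiled in 4 groups of 5. In iKO mice both the floxed alleles of Acacb, the gene of the acetyl-CoA carboxylase ACC2, and MerCreMer (MCM+), a Cre recombinase that tamoxifen activates, were present. The mice labelled WT were littermates with the same floxed alleles and no Cre, and all mice of both genotypes had tamoxifen, 20 mg/kg for 5 days from 8 weeks of age. From 4 weeks after the last injection they ate a high-fat diet (HFD) or chow for 16 weeks. The groups are iKO on HFD, WT on HFD, iKO on chow and WT on chow. The promoter that drives the Cre is not given in the sources used here, and no samples carry Cre alone, so loss of Acacb and presence of Cre cannot be told apart. The HFD libraries are numbered RT11 to RT20 and the chow libraries RT1 to RT10, so diet and numbering cannot be told apart.

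Collagens are trimers of chains wound into a triple helix. Fibrillar collagens of types I and III form the load-bearing network of the heart and are made mainly by fibroblasts, with type V chains starting the fibrils, while type IV chains form the sheet under the endothelium and around each muscle cell. Type VI forms beaded filaments between the sheet and the fibrils. Chains are hydroxylated and folded in the endoplasmic reticulum, exported, trimmed outside the cell and crosslinked, and cells sense them through integrins and discoidin domain receptors.

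Acacb checked the genotype labels, with 8.37 to 11.92 FPKM in the 10 iKO libraries against 34.90 to 41.92 FPKM in the 10 WT libraries. Esr1, whose hormone-binding part MerCreMer contains, had 421 to 1617 FPKM in iKO libraries against 0.26 to 2.0 FPKM in WT libraries. The depth, estimated from the steps of 1 read in the values of short genes, lay between 12.5 and 31.9 M reads, at which 1 read on a transcript of 5930 nt, the median length of the longest collagen transcripts, is worth 0.00537 to 0.0137 FPKM. The estimate was 20.5 to 29.4 M reads in iKO on HFD and 24 to 31.9 M in WT on HFD. On chow it was 12.5 to 24.1 M in iKO and 19.6 to 22.8 M in WT, so in WT the diets did not overlap in depth. The part of depth in the results was not tested. All 8 cardiomyocyte markers passed the filter, as ventricle requires. The atrial light chain Myl7 stood at 145.15 FPKM in WT chow library RT1 and 30.81 FPKM in iKO chow library RT4, and at no more than 2.88 FPKM elsewhere. The summed level of 6 cartilage and valve markers was 25.7 FPKM in RT4 and 1.14 to 8.34 FPKM in the other libraries. Their part in the collagen values was not tested. Values without RT4 stand beside the results that leaving it out moves most. Each library is 1 mouse, and in these bulk samples fewer cells of a type and less RNA per cell cannot be told apart.

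Basement membrane chains headed the order of levels. The mean level over the 20 libraries was 35.2 FPKM for Col4a1 and 27.4 FPKM for Col4a2, ahead of Col3a1 with 18.9 FPKM and Col1a2 with 14.3 FPKM. Col15a1, Col6a2, Col6a1, Col8a1, Col1a1 and Col4a5 followed between 11.6 and 5.99 FPKM, and the other 12 tested collagens lay at 3.36 FPKM or less. The 8 highest genes made up 77.1% to 81.9% of the summed collagen level of a library. By class, the basement membrane collagens held 50.0% ± 3.54 (SD, n = 5) of it in iKO on HFD, 51.7% ± 1.31 in WT on HFD, 46.6% ± 4.08 in iKO on chow and 50.4% ± 1.47 in WT on chow. The fibrillar collagens held 26.6% ± 1.35, 26.7% ± 0.630, 30.7% ± 2.66 and 28.4% ± 1.09 in the same 4 groups.

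**Figure D1:**
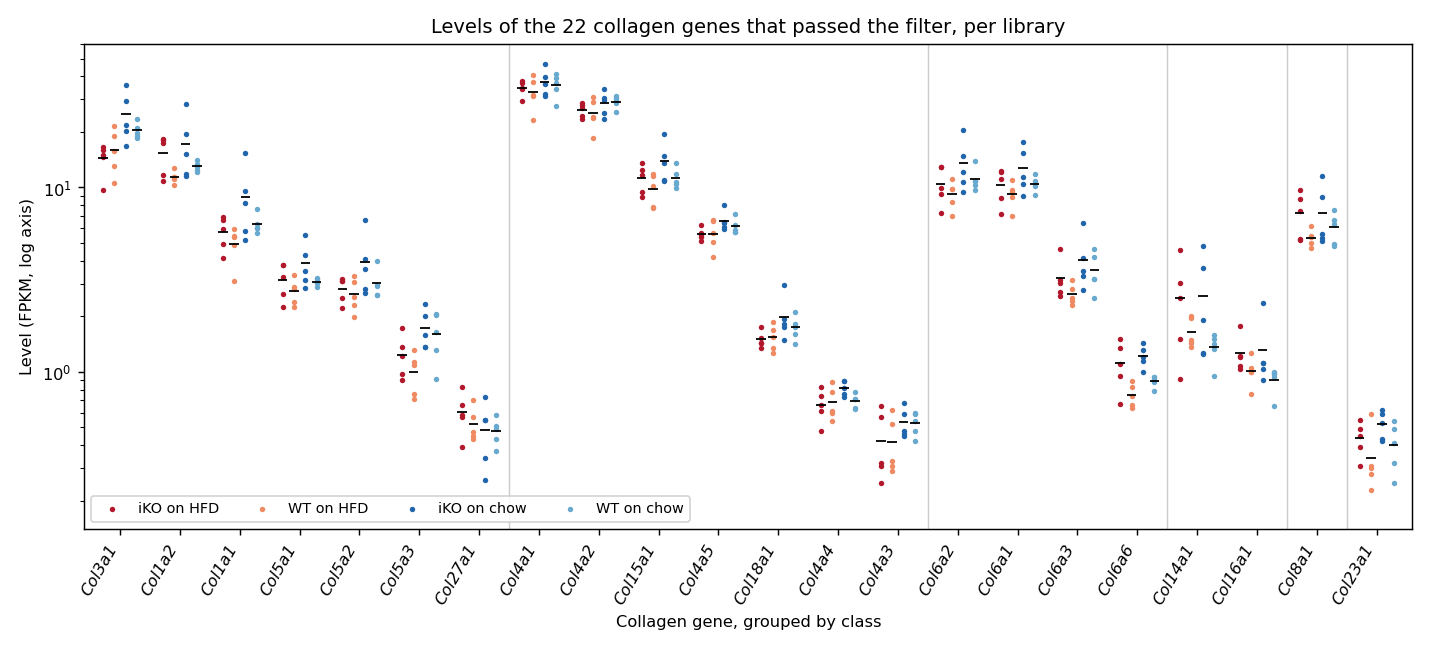
Level in FPKM on a log axis of the 22 tested collagen genes, grouped by class, with 1 point per library, colour for the group and a bar at the mean of 5 libraries. Col4a1 and Col4a2 stand highest, with means over all libraries of 35.2 and 27.4 FPKM, and the iKO chow library RT4 is the top point of 19 of the 22 genes.

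The summed level of all 43 genes was 162 FPKM ± 22.5 (SD, n = 5) in iKO on HFD, 147 ± 25.8 in WT on HFD, 197 ± 52.4 in iKO on chow and 170 ± 17.4 in WT on chow. The lowest library was RT19 of WT on HFD with 111.96 FPKM and the highest RT4 of iKO on chow with 278.15 FPKM. The groups overlap widely in this sum. The 21 genes under the filter made up 0.857% to 1.79% of it.

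Of those 21, 17 never reached 0.5 FPKM. The remaining 4 reached it in 1 or 2 libraries, always including RT4. The short-chain chain gene Col8a2 had 1.28 FPKM in RT4 and 0.51 FPKM in RT17 with a median of 0.16 FPKM, and the fibril-associated Col12a1 had 1.06 FPKM in RT4 with a median of 0.14 FPKM. Col4a6 and the cartilage collagen gene Col11a2 each had 0.59 FPKM in RT4, with medians of 0.24 and 0.11 FPKM. Highest values between 0.10 and 0.40 FPKM belonged to Col28a1, Col20a1, Col13a1, Col25a1, Col22a1, Col26a1, Col9a3, Col9a2, Col7a1, Col17a1, Col11a1, Col6a5 and Col2a1. Col24a1, Col10a1, Col9a1 and Col19a1 reached 0.06, 0.04, 0.03 and 0.01 FPKM. Col2a1, the main collagen of cartilage, was listed at 0 in 13 libraries, Col9a1 in 17 and Col19a1 in 15. Just inside the filter stood Col23a1 with 6 libraries at 0.5 FPKM or more, Col4a3 with 9 and Col27a1 with 11.

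The fibrillar collagens gave the collagen change that held in most settings, lower Col3a1 on HFD. Col3a1 (ENSMUSG00000026043.18, GRCm38 chromosome 1, 45311538 to 45349706) encodes the chain of type III collagen, the fine reticular fibrils. In iKO on HFD its level was 16.53, 15.04, 15.91, 14.59 and 9.74 FPKM, against 29.52, 35.98, 20.20, 21.86 and 16.80 FPKM in iKO on chow. Among WT mice it was 21.62, 18.94, 15.79, 13.11 and 10.58 FPKM on HFD, against 23.56, 19.80, 19.09, 20.97 and 18.59 FPKM on chow. The iKO groups do not overlap, though by a small gap, and the WT groups do.

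By limma on log2(FPKM + 1), with Benjamini-Hochberg adjustment over all 12775 genes and calls at 0.05, Col3a1 fell by 0.72 on the log2 scale in iKO on HFD against iKO on chow (SE 0.20, adjusted p = 0.0272). Averaged over genotypes it fell by 0.54 (SE 0.14, adjusted p = 0.00874). In WT alone the difference of -0.37 (SE 0.20, adjusted p = 0.252) did not pass, and the interaction of genotype and diet, -0.36 (SE 0.28, adjusted p = 0.999), did not separate the genotypes. Of all genes tested 6.41% were lower without overlap in iKO on HFD, and Col3a1 was the 1 collagen among them. In WT 10.8% of all genes did not overlap between the diets, and no collagen was among them. The call within iKO was lost without RT4 (-0.58, adjusted p = 0.0701), without RT2 (-0.65, adjusted p = 0.0673) or without RT20 (-0.60, adjusted p = 0.0680). The call averaged over genotypes held without each library in turn, with adjusted p of 0.0179 at most. Between genotypes Col3a1 differed by -0.13 (SE 0.20) on HFD and 0.23 (SE 0.20) on chow, or 0.09 on chow without RT4, none past the test.

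Type I collagen, the main tensile fibril, needs chains of Col1a1 and Col1a2. Col1a2 (ENSMUSG00000029661.16, chromosome 6, 4504814 to 4541544) stood at 11.69, 18.24, 18.15, 17.46 and 10.87 FPKM in iKO on HFD, against 12.71, 11.41, 11.37, 11.17 and 10.34 FPKM in WT on HFD. On chow it stood at 19.48, 28.34, 11.57, 15.26 and 11.83 FPKM in iKO, against 14.16, 12.50, 12.91, 12.16 and 13.41 FPKM in WT. The libraries over 17 FPKM were all iKO, namely RT13, RT15 and RT17 on HFD and RT2 and RT4 on chow, while the other 5 iKO libraries lay in or near the WT range. Col1a2 was the fibrillar collagen with the smallest p between genotypes on HFD and did not pass (0.36, SE 0.19, interval -0.03 to 0.76, adjusted p = 0.361). Averaged over genotypes its diet difference was -0.15 (SE 0.13, adjusted p = 0.422). Within iKO that difference was -0.12 and turned to 0.07 without RT4.

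Set side by side, Col1a2 and Col3a1 did not keep 1 ratio across the groups, a pattern chosen after their values were seen and given without a test. Col1a2 over Col3a1 was 0.71 in RT11 and 1.21, 1.14, 1.20 and 1.12 in the other iKO libraries on HFD, and 0.59 to 0.98 in WT on HFD. On chow it was 0.57 to 0.79 in iKO and 0.58 to 0.72 in WT. Of all 20 libraries, the 4 in which Col1a2 exceeded Col3a1 were iKO on HFD. In type I itself, Col1a1 over Col1a2 was 0.34 to 0.42 in iKO on HFD, 0.30 to 0.48 in WT on HFD, 0.44 to 0.54 in iKO on chow and 0.42 to 0.54 in WT on chow.

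**Figure D2:**
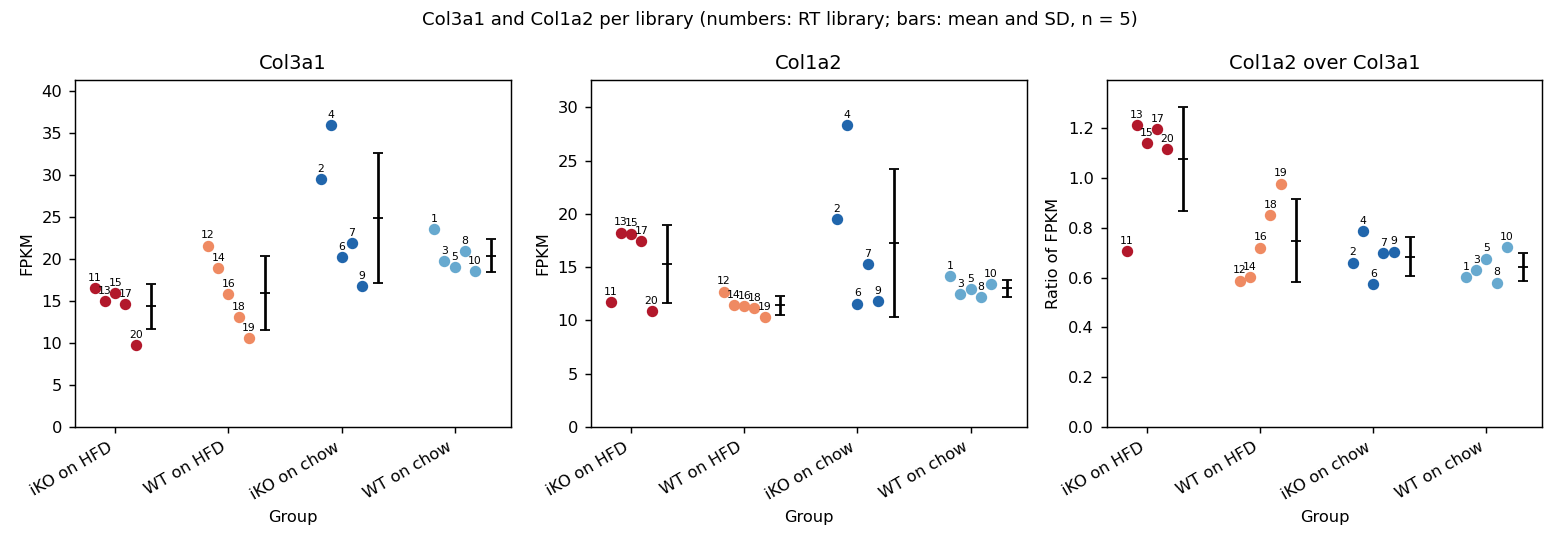
Level of Col3a1 (left) and Col1a2 (middle) in FPKM and the ratio of Col1a2 to Col3a1 (right) in each library, numbered by its RT name, with bars for mean and SD (n = 5). Col3a1 lies at 9.74 to 16.53 FPKM in iKO on HFD against 16.80 to 35.98 FPKM in iKO on chow, and the ratio exceeds 1 in RT13, RT15, RT17 and RT20.

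The windows from 250 bases before to 50 bases after the RefSeq start of both genes are shown because the ratio of the 2 genes differed between groups, as described above. Both are on the plus strand and come from the RefSeq table of GRCm38.p6, Col1a2 at chr6:4505368-4505667 and Col3a1 at chr1:45311288-45311587, with CCAAT on either strand in capitals. Col1a2 holds 2 such matches and Col3a1 none, and their GC content is 61% and 37.7%.
Col1a2: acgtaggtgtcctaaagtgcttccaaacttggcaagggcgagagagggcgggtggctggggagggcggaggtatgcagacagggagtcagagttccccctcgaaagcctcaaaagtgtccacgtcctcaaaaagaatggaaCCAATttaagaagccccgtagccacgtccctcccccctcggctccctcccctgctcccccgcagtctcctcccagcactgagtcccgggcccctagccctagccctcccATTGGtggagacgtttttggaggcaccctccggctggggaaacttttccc
Col3a1: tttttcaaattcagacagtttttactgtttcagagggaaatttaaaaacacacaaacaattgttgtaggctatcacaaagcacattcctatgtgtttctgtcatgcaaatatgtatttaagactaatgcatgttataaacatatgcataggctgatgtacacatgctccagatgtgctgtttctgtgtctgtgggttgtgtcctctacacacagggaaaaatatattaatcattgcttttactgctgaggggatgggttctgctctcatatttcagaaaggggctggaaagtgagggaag
Of all 32851 mouse windows 37.4% hold CCAAT on either strand, and 12 of the 37 windows of 34 collagen genes do. Of the other motifs searched on both strands, GGGCGG is in 22 of the 37 collagen windows and in 35.7% of all windows, and TATAAA in 5 of the 37 and in 13.6% of all. Col3a1 holds 1 TATAAA, and Col1a2 holds GGGCGG in 2 places. A match is a string of letters and no evidence of binding. No window was matched for Col1a1, Col2a1, Col4a3, Col5a2, Col9a3, Col12a1, Col14a1, Col22a1 and Col26a1.

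Col1a1 (ENSMUSG00000001506.10, chromosome 11, 94936224 to 94953042) stood at 4.96, 6.64, 6.94, 5.92 and 4.14 FPKM in iKO on HFD, against 9.59, 15.34, 5.84, 8.28 and 5.20 FPKM in iKO on chow. Among WT mice it stood at 5.95, 5.39, 5.47, 4.86 and 3.10 FPKM on HFD, against 7.63, 6.06, 6.36, 5.99 and 5.64 FPKM on chow. Both pairs of groups overlap, WT by the single library RT12. Averaged over genotypes the diet difference of -0.40 (SE 0.15) did not pass by limma (adjusted p = 0.0543). It passed without RT6 (adjusted p = 0.0292), RT9 (0.0180) or RT15 (0.0484). In 26 of 30 alternative settings it did not pass. Over all 30 the difference lay between -0.47 and -0.26, with adjusted p up to 0.209.

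The type V chains limit and start fibrils. Col5a3 (ENSMUSG00000004098.7, chromosome 9, 20770050 to 20815067) had 1.22, 1.72, 1.37, 0.90 and 0.97 FPKM in iKO on HFD, against 2.02, 2.33, 1.36, 1.59 and 1.36 FPKM in iKO on chow. Among WT mice it had 1.31, 1.13, 1.09, 0.71 and 0.76 FPKM on HFD, against 2.04, 1.65, 2.06, 1.32 and 0.91 FPKM on chow. The diet groups overlap in both genotypes. Averaged over genotypes Col5a3 fell by 0.33 (SE 0.09, limma, adjusted p = 0.0145), while within WT (-0.36, SE 0.13, adjusted p = 0.0887) and within iKO (-0.29, SE 0.13, adjusted p = 0.176) it did not pass. The averaged call was lost under median-of-ratios scaling (adjusted p = 0.0582) and upper-quartile scaling (0.0814), without RT1 and RT4 (0.0588) and without RT4 and RT7 (0.0528). Without RT10, the WT chow library with the lowest Col5a3, the difference in WT was -0.47 (adjusted p = 0.0329).

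Col5a1 was the fibrillar collagen with the smallest p between genotypes on chow. It had 4.31, 5.53, 3.14, 3.52 and 2.85 FPKM in iKO on chow, against 3.17, 3.03, 3.03, 3.23 and 2.87 FPKM in WT on chow, a difference of 0.23 (SE 0.13, adjusted p = 0.419) that did not pass. Its groups overlap, with RT2 and RT4 above every WT chow library by the widest margin. Without RT4 the difference was 0.12. The groups' means were 3.14 ± 0.69 FPKM in iKO on HFD and 2.74 ± 0.45 FPKM in WT on HFD (SD, n = 5). Col5a2 lay between 1.99 and 6.64 FPKM and Col27a1 between 0.26 and 0.83 FPKM over all libraries. Col27a1 was the 1 fibrillar collagen with a diet difference above 0 in both genotypes, 0.12 in iKO and 0.04 in WT (SE 0.09 each), neither past the test.

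No basement membrane collagen passed the test in any comparison. Col4a1 and Col4a2, whose chains join in the main type IV trimer, were the most abundant of the class. Col4a1 (ENSMUSG00000031502.11, chromosome 8, 11198423 to 11312826) had 34.75, 37.76, 36.81, 34.34 and 29.50 FPKM in iKO on HFD, against 40.83, 37.28, 31.58, 31.39 and 23.22 FPKM in WT on HFD. On chow it had 39.73, 46.86, 32.02, 36.55 and 31.37 FPKM in iKO, against 41.38, 34.01, 39.39, 36.75 and 27.74 FPKM in WT. All 4 groups overlap, and its 4 pairwise differences lay between -0.13 and 0.09 (SE 0.14 each, adjusted p from 0.556 to 0.892), with signs that turn under another scaling. The widest 95% interval bounds were -0.42 for the diet in WT and 0.38 for the genotype on HFD.

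Col4a2 (ENSMUSG00000031503.13, chromosome 8, 11312805 to 11449287) had the smallest p of the class for the diet in WT. It had 30.84, 29.16, 24.17, 23.79 and 18.66 FPKM in WT on HFD, against 31.23, 28.64, 30.63, 29.78 and 25.58 FPKM in WT on chow. The groups overlap and the difference of -0.21 (SE 0.11, adjusted p = 0.226) did not pass. In iKO it had 23.45 to 28.54 FPKM on HFD and 23.60 to 34.06 FPKM on chow. Col4a1 over Col4a2 stayed between 1.08 and 1.41 in all 20 libraries.

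The pair lies head to head on chromosome 8, with RefSeq starts 21 bases apart, and is shown because its levels kept that narrow ratio. The windows, each written on the strand of its gene, are chr8:11312777-11313076 on the minus strand for Col4a1 and chr8:11312555-11312854 on the plus strand for Col4a2. Capitals mark the 78 bases that both windows contain, chr8:11312777-11312854.
Col4a1: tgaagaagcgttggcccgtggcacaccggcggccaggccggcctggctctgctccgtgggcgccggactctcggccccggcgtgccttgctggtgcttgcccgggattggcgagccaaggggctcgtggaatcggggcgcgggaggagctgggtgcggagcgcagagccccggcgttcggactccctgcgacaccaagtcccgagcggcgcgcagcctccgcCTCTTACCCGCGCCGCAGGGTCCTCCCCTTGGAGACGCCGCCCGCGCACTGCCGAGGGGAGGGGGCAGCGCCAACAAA
Col4a2: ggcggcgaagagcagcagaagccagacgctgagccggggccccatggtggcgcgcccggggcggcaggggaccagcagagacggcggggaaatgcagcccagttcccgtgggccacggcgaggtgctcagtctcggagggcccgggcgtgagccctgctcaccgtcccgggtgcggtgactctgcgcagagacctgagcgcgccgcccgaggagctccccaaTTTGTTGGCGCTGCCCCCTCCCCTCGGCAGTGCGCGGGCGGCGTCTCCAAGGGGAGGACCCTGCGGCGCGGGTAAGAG
Both windows are rich in GC, at 74% for Col4a1 and 73.7% for Col4a2, and each holds CCAAT in 1 place. Of the other type IV pairs, Col4a5 and Col4a6 have RefSeq starts 1343 bases apart. Col4a3 had no RefSeq window, so its distance to Col4a4 was not computed. By GRCm38 gene coordinates Col4a3 starts at 82586921 on the plus strand of chromosome 1, and Col4a4 at 82586849 on the minus strand. Col4a3 had 0.25 to 0.68 FPKM and Col4a4 had 0.48 to 0.89 FPKM. Col4a5 and Col4a6 stood far apart in level, at 4.19 to 8.08 FPKM and 0.13 to 0.59 FPKM, and their ratio was not computed. Col6a1 over Col6a2 kept a similarly narrow ratio to that of Col4a1 over Col4a2, at 0.85 to 1.11. Col6a1 and Col6a2 both lie on the minus strand of chromosome 10, at 76708792 to 76726168 and 76595762 to 76623630. Whether the start region bears on a ratio was not tested.

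Col15a1, a basement membrane proteoglycan collagen of vessels and muscle, had the smallest p of the class for both genotype comparisons. It had 9.42, 13.63, 12.42, 11.68 and 8.92 FPKM in iKO on HFD, against 11.87, 11.53, 10.13, 7.74 and 7.84 FPKM in WT on HFD, and the difference of 0.18 (SE 0.15, adjusted p = 0.560) did not pass. On chow it had 14.87, 19.39, 10.97, 13.55 and 10.90 FPKM in iKO, against 13.64, 10.69, 11.82, 10.40 and 9.88 FPKM in WT, with a difference of 0.26 (SE 0.15, adjusted p = 0.457), or 0.14 without RT4. The groups overlap in both diets. Col18a1, the source of endostatin, had the smallest p for the diet in iKO, with 1.74, 1.35, 1.44, 1.44 and 1.53 FPKM on HFD against 1.81, 2.95, 1.75, 1.93 and 1.49 FPKM on chow. Its difference of -0.24 (SE 0.10, adjusted p = 0.130), or -0.13 without RT4, did not pass. Col4a3 and Col4a4, known best from the kidney filter, stayed at 0.25 to 0.68 FPKM and 0.48 to 0.89 FPKM.

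Of the type VI collagens, Col6a6 was higher in iKO. Col6a6 (ENSMUSG00000043719.14, chromosome 9, 105687809 to 105828160) encodes a minor chain that can stand in for that of Col6a3. It had 0.95, 1.51, 1.35, 1.10 and 0.67 FPKM in iKO on HFD, against 0.83, 0.66, 0.89, 0.74 and 0.64 FPKM in WT on HFD. On chow it had 1.44, 1.32, 1.0, 1.14 and 1.20 FPKM in iKO, against 0.79, 0.90, 0.94, 0.88 and 0.94 FPKM in WT. The groups overlap on HFD, where RT20 lies in the WT range, and not on chow, where 2.07% of all genes tested were higher in iKO without overlap. On HFD 3.24% of all genes tested did not overlap between genotypes, and no collagen was among them.

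Averaged over diets Col6a6 rose by 0.24 on the log2 scale (SE 0.06, limma, adjusted p = 0.0280). Within each diet it did not pass, with 0.26 on HFD (SE 0.09, adjusted p = 0.215) and 0.23 on chow (SE 0.09, adjusted p = 0.253). The call was lost without RT4 (0.24, adjusted p = 0.0522), RT13 (0.21, adjusted p = 0.0552) or RT15 (0.22, adjusted p = 0.0530). It was also lost under median-of-ratios scaling (adjusted p = 0.0531), upper-quartile scaling (0.0661) and with no filter (0.0634), and without RT1 and RT4 (0.0707) or RT4 and RT7 (0.0773). RT4, RT13 and RT15 are among the 5 libraries with the highest summed fibroblast markers, given below, and the part of those markers in the result was not tested.

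The main type VI chains were more abundant and did not pass in any comparison. Col6a2 had 9.18, 12.97, 12.99, 9.96 and 7.31 FPKM in iKO on HFD, against 14.72, 20.54, 10.75, 12.08 and 9.49 FPKM in iKO on chow, a difference of -0.32 (SE 0.18, adjusted p = 0.275), or -0.16 without RT4. Among WT mice it had 11.15, 9.86, 9.77, 8.39 and 7.02 FPKM on HFD, against 13.84, 10.80, 10.85, 10.29 and 9.65 FPKM on chow, a difference of -0.24 (SE 0.18, adjusted p = 0.397). Both pairs of groups overlap. Col6a1, the partner chain, followed it with a ratio to Col6a2 between 0.85 and 1.11. Col6a3 had the smallest p of the class for the diet in WT, with 2.29 to 3.13 FPKM on HFD against 2.52 to 4.63 FPKM on chow (-0.31, SE 0.16, adjusted p = 0.225).

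Among the remaining classes 4 genes were tested, and none passed in any comparison. Col14a1, a fibril-associated collagen of dense connective tissue, had the largest SD of log2(FPKM + 1) of the 22 within both iKO groups. It had 0.92, 2.52, 3.02, 4.57 and 1.5 FPKM in iKO on HFD, against 2.01, 1.97, 1.36, 1.43 and 1.49 FPKM in WT on HFD. On chow it had 3.64, 4.80, 1.26, 1.91 and 1.25 FPKM in iKO, against 1.5, 1.33, 0.95, 1.59 and 1.41 FPKM in WT. Its genotype difference was 0.31 on HFD (SE 0.27, adjusted p = 0.569) and 0.50 on chow (SE 0.27, adjusted p = 0.430), or 0.30 on chow without RT4. The groups overlap on both diets, and on HFD the iKO values reach beyond the WT range at both ends.

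Col8a1, a short-chain collagen of vessel walls, had 5.24, 7.42, 8.64, 9.65 and 5.22 FPKM in iKO on HFD, against 5.41, 6.18, 5.01, 5.45 and 4.67 FPKM in WT on HFD, a difference of 0.35 (SE 0.19, adjusted p = 0.389). It had 8.85, 11.60, 5.32, 5.10 and 5.58 FPKM in iKO on chow, against 7.59, 4.83, 6.32, 6.65 and 4.95 FPKM in WT on chow, a difference of 0.18 (SE 0.19, adjusted p = 0.71), or 0.02 without RT4. The groups overlap on both diets, with RT13, RT15 and RT17 highest in iKO on HFD and RT2 and RT4 highest in iKO on chow, while RT1 of WT on chow, with 7.59 FPKM, lay above RT13.

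Col16a1, another fibril-associated collagen, had 0.76 to 2.37 FPKM in all groups but WT on chow, where it had 0.65 to 1.0 FPKM. Its genotype difference was 0.16 on HFD (SE 0.12, adjusted p = 0.515) and 0.25 on chow (SE 0.12, adjusted p = 0.381), or 0.10 on chow without RT4. The transmembrane Col23a1 had 0.31 to 0.55 FPKM in iKO on HFD, 0.23 to 0.59 FPKM in WT on HFD, 0.42 to 0.62 FPKM in iKO on chow and 0.25 to 0.54 FPKM in WT on chow. These groups overlap, and no adjusted p of Col23a1 in a pairwise comparison was below 0.519. The diet differences within iKO of Col14a1 (-0.01, SE 0.27) and Col16a1 (-0.01, SE 0.12) stood at about 0, and without RT4 they were 0.19 and 0.14.

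Counted over the 22 tested genes, few collagens were called. By limma with Benjamini-Hochberg adjustment, none was called between iKO and WT on HFD, where 0.172% of all genes were, nor on chow, where 1.06% were. At an unadjusted p under 0.05 there was 1 collagen in each, Col6a6, beside 15.2% of all genes on HFD and 13.5% on chow. Averaged over diets 1 collagen was called higher, Col6a6, beside 4.01% of all genes, and 5 had an unadjusted p under 0.05 beside 25.1%.

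For HFD against chow in iKO 1 collagen was called lower, Col3a1, beside 8.36% of all genes, and 6 had an unadjusted p under 0.05 beside 25.7%. For HFD against chow in WT none was called, beside 8.04% of all genes, and 1 had an unadjusted p under 0.05, Col5a3, beside 25.6%. Averaged over genotypes 2 collagens were called, Col3a1 and Col5a3, both lower, beside 2.55% of all genes called higher and 23.3% called lower. With median-of-ratios scaling 689 genes were called higher and 617 lower in that comparison, against 326 and 2973 without it, and of the collagens Col3a1 alone was called. Of the collagens, 10 of 22 had an unadjusted p under 0.05 there, beside 38.7% of all genes. No collagen was called for the interaction or had an unadjusted p under 0.05 for it, beside 0.0313% and 3.76% of all genes. Median-of-ratios scaling likewise changed the split of all genes called higher and lower to 328 and 231 from 211 and 1068 for the diet in iKO, to 174 and 149 from 98 and 929 for the diet in WT, and to 98 and 306 from 512 and 148 for the genotype averaged over diets. Within diets the split was 8 and 17, from 13 and 9, for the genotype on HFD, and 18 and 130, from 44 and 92, on chow.

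The direction of the fitted differences was mostly 1 way. Of the 22 genes 19 were above 0 in iKO against WT on HFD, with a median log2 difference of 0.14, beside 74.4% of all genes and a median of 0.06. On chow 21 were above 0, with a median of 0.20, beside 70.8% and 0.05. With HFD against chow, 20 were below 0 in iKO (median -0.16, beside 73.8% and -0.07 for all genes) and 19 in WT (median -0.14, beside 78.6% and -0.08).

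The whole transcriptome leaned the same way. Collagens varied together within groups, as given below, so their counts are not of separate observations. Median-of-ratios scaling divides each library by its median ratio to the mean over libraries, and so removes a lean of all genes by construction. Under that scaling 16 of 22 collagens were above 0 on HFD, beside 50.5% of all genes, and 18 on chow, beside 49.6%. For the diet 18 were below 0 in iKO, beside 50.3%, and 18 in WT, beside 50.0%. Upper-quartile scaling moved the median of all genes for the diet in WT to 0.03, from -0.08, and left 17 of 22 collagens below 0 there. On chow 15 of 21 collagens were above 0 without RT4 and RT7, beside 56.0% of all genes, and 19 of 22 without RT1 and RT4, beside 65.5%.

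**Figure D3:**
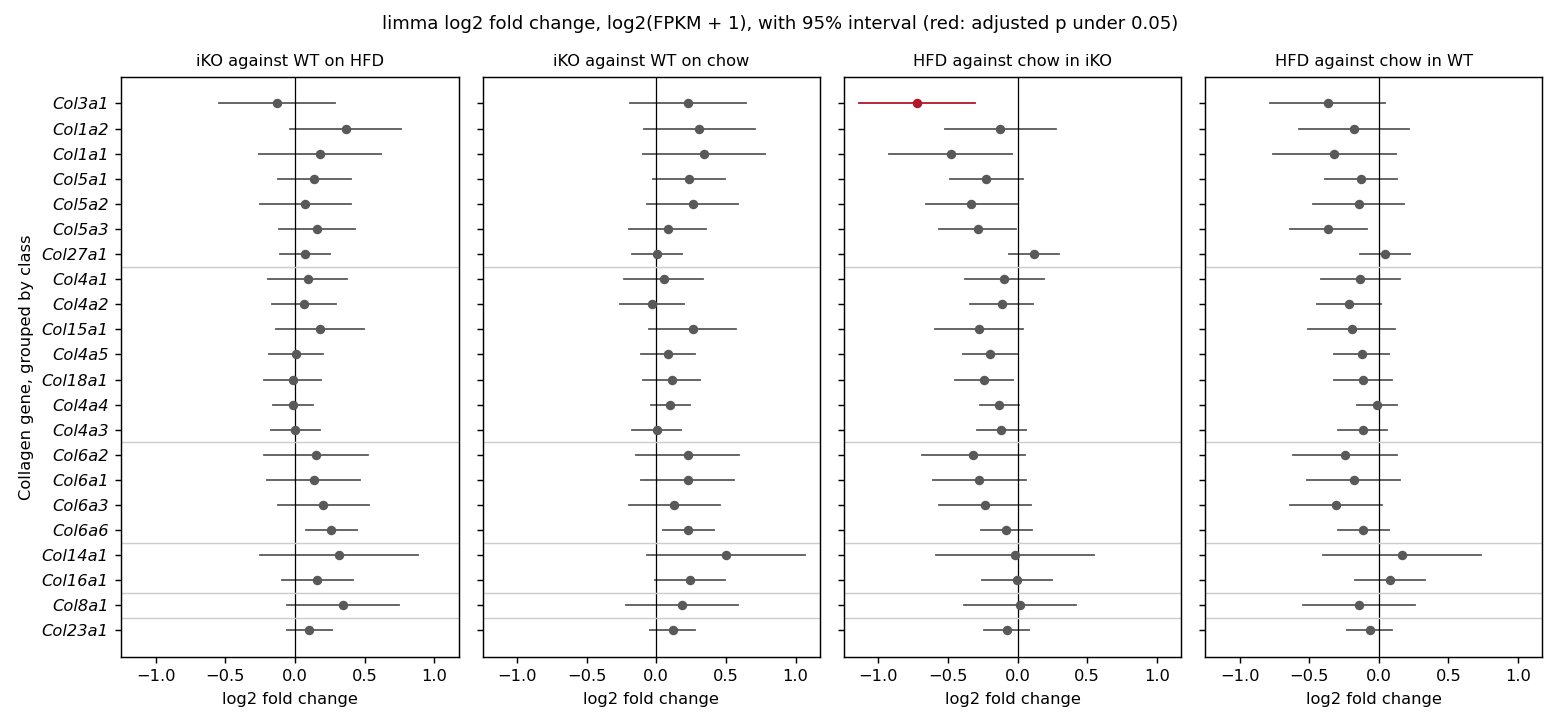
Log2 fold change by limma on log2(FPKM + 1) with its 95% interval for the 22 tested collagen genes, in 4 panels for iKO against WT on HFD, iKO against WT on chow, HFD against chow in iKO and HFD against chow in WT. Red marks an adjusted p under 0.05, which Col3a1 alone has, at -0.72 for the diet in iKO.

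Within groups the collagens varied more than most genes and varied together. The median SD of the log2 values was 0.22 for the 22 collagens beside 0.11 for all genes in iKO on HFD, 0.17 beside 0.11 in WT on HFD, 0.31 beside 0.13 in iKO on chow and 0.13 beside 0.10 in WT on chow. Without RT4 it was 0.18 beside 0.12 in iKO on chow, a comparison chosen after the data were seen. RT20 was the lowest library of iKO on HFD for 15 of the 22 collagens. In WT on HFD RT12 was highest for 14 and RT19 lowest for 15, and RT19 was the lowest of all 20 libraries for 11. Without RT19 the genotype difference of Col4a1 on HFD went from 0.093 to -0.022, neither past the test. RT4 was the highest of iKO on chow for 20 and the highest of all 20 libraries for 19, while RT9 was lowest of its group for 14. In WT on chow RT1 was highest for 13.

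Over deviations from the group means in 20 libraries, chains that share a trimer correlated closely. Pearson's r was 0.91 for Col1a1 with Col1a2 (Spearman's rho 0.89), 0.95 for Col4a1 with Col4a2 (rho 0.91) and 0.96 for Col6a1 with Col6a2 (rho 0.95). Chains of different trimers did so as well, with r of 0.87 for Col1a1 with Col3a1 (rho 0.79), 0.84 for Col1a1 with Col4a1 (rho 0.84) and 0.84 for Col3a1 with Col15a1 (rho 0.82). These 6 pairs were examined, and a permutation test within groups gave p = 1e-05 for r, the smallest that 100000 draws can give, except p = 0.0001 for Col3a1 with Col15a1, the same values after Benjamini-Hochberg adjustment over the 6. For rho the adjusted permutation p lay between 3e-05 and 0.00053. Without the 2 libraries farthest from the median of the first gene, r lay between 0.78 and 0.94. Pairs of other genes were not examined, and r was not computed under another scaling.

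**Figure D4:**
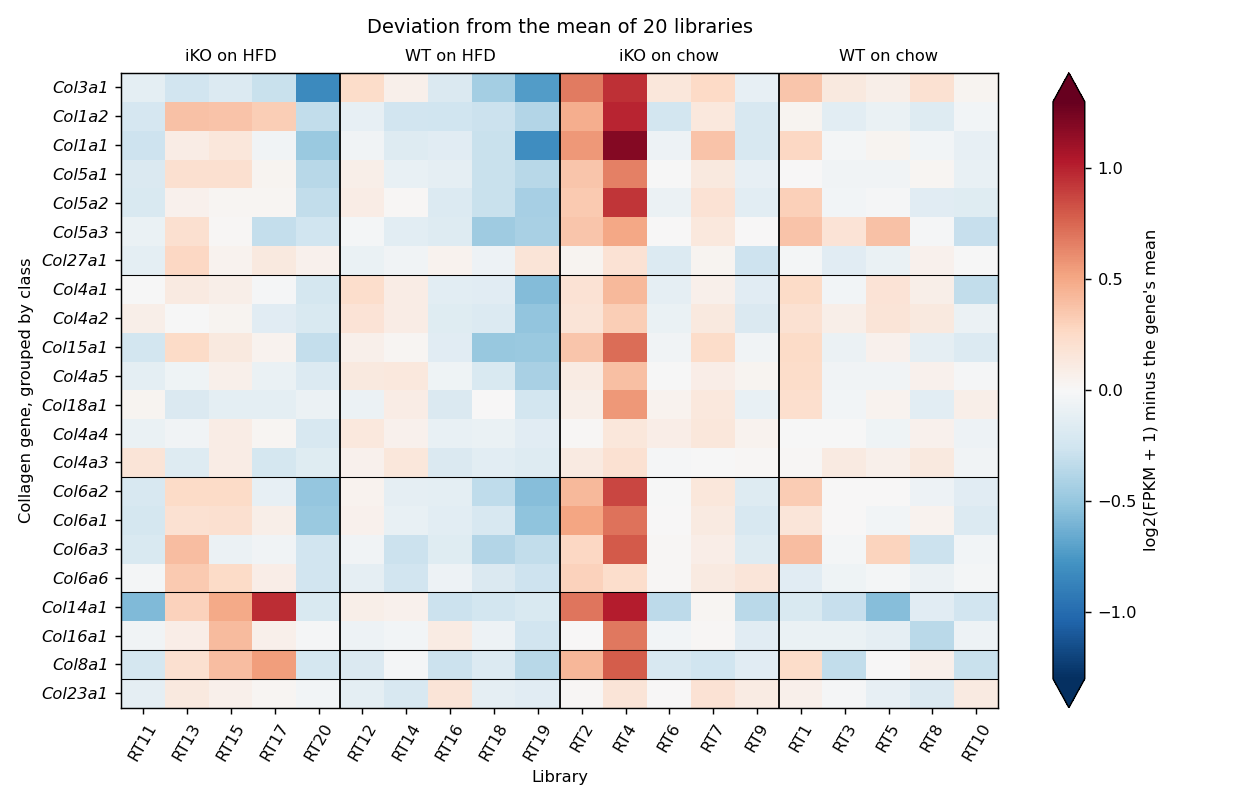
Deviation of log2(FPKM + 1) from each gene's mean over 20 libraries, with collagen genes down the page by class and libraries across by group, on a colour scale from blue (lower) to red (higher). The column of RT4 is red in all 22 genes, and Col3a1 is blue in iKO on HFD while Col1a2 is red in RT13, RT15 and RT17.

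Fibroblast markers moved with part of this. The summed level of 14 markers, among them Dcn, Pdgfra and Gsn, was 1440, 1303 and 1365 FPKM in RT13, RT15 and RT17 and 691 and 696 FPKM in RT11 and RT20 of iKO on HFD, and 704 to 800 FPKM in WT on HFD. In iKO on chow it was 1354 and 1609 FPKM in RT2 and RT4 and 749 to 922 FPKM in the other 3 libraries, and it was 682 to 825 FPKM in WT on chow. Gsn and Dcn made up most of the sum, with 743 and 466 FPKM in RT13 and 320 and 252 FPKM in RT11. The 5 libraries with the highest marker sums are the 5 with the highest Col1a2. Col3a1 was not high in those of them on HFD, where RT13, RT15 and RT17 had 15.04, 15.91 and 14.59 FPKM. All 13 tested fibroblast markers were above 0 in iKO against WT on both diets, beside 74.4% of all genes on HFD and 70.8% on chow. Averaged over diets 2 of them were called higher, Tcf21 and Pdgfrl, beside 4.01% of all genes, and 9 had an unadjusted p under 0.05 and were higher, beside 21.8%. Whether these 2 calls hold under another scaling or without single libraries was not examined. Median-of-ratios scaling left 98 of all genes called higher in that comparison, from 512. Lamc3 was under 0.5 FPKM in every library, and none of the 14 was at 0.

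Between diets 7 of the 13 fibroblast markers were below 0 in iKO, beside 73.8% of all genes, and 9 in WT, beside 78.6%. None of the 13 was called in either genotype, beside 8.36% of all genes called lower in iKO and 7.27% in WT. Averaged over genotypes 1 was called lower, Meox1, beside 23.3% of all genes. Of the 8 cardiomyocyte markers 5 were called lower on HFD in iKO, beside 8.36% of all genes, and 6 in WT, beside 7.27%. The marker calls were not examined under another scaling. Median-of-ratios scaling left 231 genes called lower on HFD in iKO, from 1068, and 149 in WT, from 929. Their summed level was 27464 to 29220 FPKM in iKO on HFD and 25901 to 32362 FPKM in WT on HFD, against 33102 to 37500 FPKM in iKO on chow and 33367 to 34660 FPKM in WT on chow. Endothelial markers, 8 genes, none of them at 0, summed to 211 to 237 FPKM in iKO on HFD, 203 to 218 FPKM in WT on HFD, 205 to 238 FPKM in iKO on chow and 216 to 224 FPKM in WT on chow. The part of these cell markers in the collagen values was not tested.

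**Figure D5:**
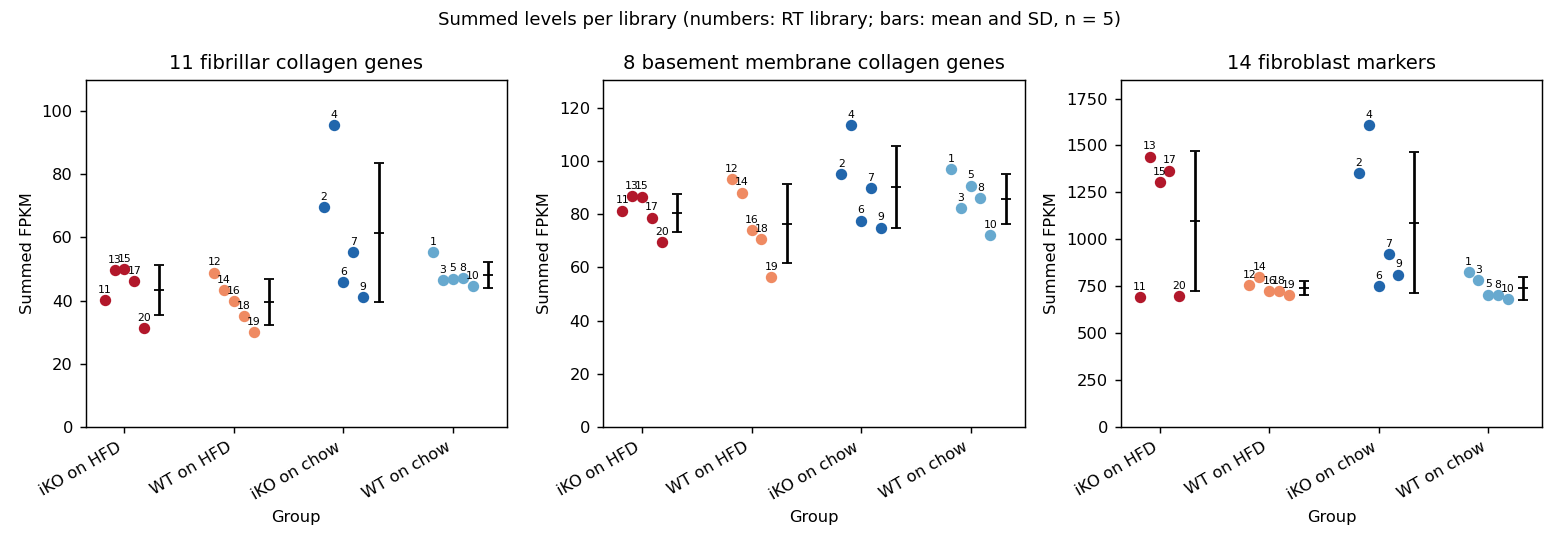
Summed FPKM per library, numbered by its RT name, of the 11 fibrillar collagens, the 8 basement membrane collagens and 14 fibroblast markers, with bars for mean and SD (n = 5). The marker sum lies at 1303 FPKM or more in RT13, RT15, RT17, RT2 and RT4, whereas the basement membrane collagens lie between 56.2 and 113.5 FPKM with overlap of all 4 groups.

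The genes that make, mature, cut and sense collagen were followed in lists that do not hold collagens. Of 19 tested genes of chain modification and folding, 3 rose, beside 2.55% of all genes, and 2 fell, beside 23.3% of all genes, on HFD averaged over genotypes, by limma with Benjamini-Hochberg adjustment. In iKO averaged over diets 4.01% of all genes were called higher and 1.16% lower. Fkbp10, a prolyl isomerase chaperone of collagen, stood at 8.67 ± 0.84 FPKM in iKO on HFD, against 6.50 ± 0.68 FPKM in iKO on chow, and at 9.52 ± 1.11 FPKM in WT on HFD, against 7.49 ± 0.81 FPKM in WT on chow (SD, n = 5). It rose by 0.37 in iKO (SE 0.08, adjusted p = 0.00693) and by 0.31 in WT (SE 0.08, adjusted p = 0.0258), where the call was lost without RT5, RT8, RT16 or RT18. P3h4, a partner of the collagen lysyl hydroxylase, stood at 12.1 ± 0.66 FPKM in iKO on HFD against 9.27 ± 0.52 FPKM in iKO on chow and rose by 0.35 there (SE 0.06, adjusted p = 0.000601). The ion channel gene Tmem38b rose by 0.14 averaged over genotypes (SE 0.05, adjusted p = 0.0322), a call lost without any 1 of 8 libraries.

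The members of that list that fell were P4hb, the beta subunit of prolyl 4-hydroxylase, and Mia3, the receptor that loads procollagen for export. P4hb stood at 59.8 ± 2.33 FPKM in WT on HFD against 70.4 ± 2.38 FPKM in WT on chow and fell by 0.23 (SE 0.05, adjusted p = 0.0101). Mia3 stood at 19.8 ± 1.59 FPKM in WT on HFD against 24.7 ± 1.66 FPKM in WT on chow and fell by 0.31 (SE 0.06, adjusted p = 0.00344). Under median-of-ratios scaling these falls were -0.13 and -0.20 and no longer called (adjusted p = 0.0754 and 0.0590), whereas the rises of Fkbp10 and P3h4 were 0.45 and 0.43 in iKO. In iKO neither P4hb nor Mia3 passed the test.

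None of the 10 tested genes of propeptide removal and crosslinking was called in any comparison. The share of all genes called ran from 0.0313% for the interaction to 25.8% for the diet averaged over genotypes. At an unadjusted p under 0.05 averaged over diets, 5 of the 10 were higher in iKO, beside 21.8% of all genes. The crosslinking enzyme genes with the smallest p were Loxl2, with 2.58 ± 0.37 FPKM in iKO on HFD against 4.17 ± 1.36 FPKM in iKO on chow (-0.50, SE 0.16, adjusted p = 0.0525), and Lox, which differed by 0.33 between genotypes averaged over diets (SE 0.12, adjusted p = 0.0999). Of 13 genes of collagen breakdown, Ctsl, a lysosomal protease, alone was called. It was lower by 0.25 on HFD averaged over genotypes (SE 0.05, limma, adjusted p = 0.00152), beside 23.3% of all genes called lower. That call was lost under upper-quartile scaling (adjusted p = 0.126). Of 13 basement membrane partners, the laminin chain gene Lama5 rose by 0.28 on HFD averaged over genotypes (SE 0.08, limma, adjusted p = 0.0123), beside 2.55% of all genes. Lamb2 fell by 0.18 in that comparison (SE 0.06, adjusted p = 0.0294), beside 23.3% of all genes. The call of Lamb2 was lost under both scalings and without RT8, RT10, RT11, RT13 or RT19.

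Of 13 fibril partners, Fbn1, the microfibril gene, fell by 0.38 on HFD averaged over genotypes (SE 0.09, limma, adjusted p = 0.00612), beside 23.3% of all genes. Its level was 3.15 ± 0.40 FPKM in iKO and 3.33 ± 0.94 FPKM in WT on HFD. On chow it was 4.59 ± 0.88 FPKM in iKO and 4.40 ± 0.83 FPKM in WT (SD, n = 5). Thbs2, a matricellular protein gene, rose in iKO averaged over diets by 0.30 (SE 0.07, adjusted p = 0.0162), beside 4.01% of all genes. That call was lost under upper-quartile scaling (adjusted p = 0.0618). Of 7 tested collagen receptors, the discoidin domain receptor gene Ddr1 alone was called. It was higher in iKO by 0.22 averaged over diets (SE 0.06, adjusted p = 0.0374), beside 4.01% of all genes. That call was lost under both scalings and without any 1 of 13 libraries. TGF-beta signalling, the main driver of collagen transcription in fibroblasts, was followed in 15 genes. Ltbp1, which stores latent TGF-beta, rose in iKO averaged over diets by 0.22 (SE 0.06, adjusted p = 0.0279), beside 4.01% of all genes. That call was lost under both scalings and without RT5, RT13 or RT15.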

How the data were processed

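The authors deposited FPKM per gene, in 1 table for each library. According to the submitters' processing notes, mm9 was the build, and Bowtie2, DESeq2 and RSEM were used, no version being stated. The gene IDs carry Ensembl versions, and GENCODE M21 (GRCm38) holds all 43 collagen IDs, 32 with the same version, so coordinates are on GRCm38 by ID. FPKM are not counts, so the count test that the design held in reserve was not used, and the FPKM form of the design was. Tests used log2(FPKM + 1), a scale on which changes of low genes come out smaller, for genes with 0.5 FPKM or more in at least 5 libraries. Limma 3.58.1 in R 4.3.3, with a mean-variance trend and robust moderation, took the 4 group means over all 20 libraries, and p-values were adjusted by Benjamini-Hochberg over 12775 genes. The fit was also run on simulated data with noise drawn for each gene separately. Those data lack the shared variation of genes between libraries, so the run cannot show how that variation affects the calls. Levels and correlations were computed in Python 3.11.15 with pandas 2.3.3, numpy 2.4.6 and scipy 1.17.1, and figures drawn with matplotlib 3.10.9. Depth came from 155 to 220 genes of 130 to 450 nt per library, with 49.7% to 70.4% of their values whole within 0.05 reads, so it is approximate, and no count test was run on recovered reads.

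Errors of levels are SDs over 5 mice and those of fold changes limma's SE. Each library's group is its labelled genotype and diet. Named in full were each called collagen and, in each class, the member with the highest level and that with the smallest p in each pairwise comparison, and called members of the partner lists. Other collagens are named beside them with their values seen. The members and lists were chosen with earlier results of these data known. The alternatives were other pseudocounts, filters, scalings and variance models, only the groups compared, and leaving out libraries. Strand of the counting is not given in the sources used here. Of the partner lists, 1 gene is not reported here.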

Additional observations from a re-analysis of the deposited data

Results flagged for a closer look

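Over the 22 tested collagens in 4 groups, 88 sets of 5 libraries were examined for a library whose gap to its nearest neighbour exceeds 0.71 of the range of the group, and 9 were found. Chance alone marks about 1 in 20 sets.

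In iKO on HFD the library RT20 had the lowest Col3a1, 9.74 FPKM with the next at 14.59 FPKM. RT13 had the highest Col6a3 there, 4.64 FPKM with the next at 3.15 FPKM, and RT15 the highest Col16a1, 1.78 FPKM with the next at 1.22 FPKM. In WT on HFD the library RT16 had the highest Col23a1, 0.59 FPKM with the next at 0.31 FPKM. In iKO on chow the library RT4 had the highest Col4a5, 8.08 FPKM with the next at 6.49 FPKM, and the highest Col16a1, 2.37 FPKM with the next at 1.12 FPKM. In WT on chow the library RT1, which held the most Myl7, had the highest Col6a2, 13.84 FPKM with the next at 10.85 FPKM, and the highest Col5a2, 3.97 FPKM with the next at 2.97 FPKM. RT8 had the lowest Col16a1 there, 0.65 FPKM with the next at 0.94 FPKM.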

How the results depend on the processing

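Of 51 fold changes examined under up to 31 alternatives, 43 never changed sign, and the 8 that did were not called. The fall of Col3a1 averaged over genotypes was called in all 30 alternatives (adjusted p at most 0.0469). Its call in iKO was lost in 7 of 31 (adjusted p from 0.0110 to 0.146 over all), that of Col6a6 averaged over diets in 8 of 29 (0.00489 to 0.0773) and that of Col5a3 averaged over genotypes in 4 of 30 (0.00402 to 0.0814). The cause of these losses was not tested. The count of collagens called for the diet in iKO was 0 under upper-quartile scaling, with only the groups compared, without RT1 and RT4 and without RT4 and RT7. The count for the genotype averaged over diets was 0 under no filter, the stricter filter (which leaves out Col6a6), both scalings and without either of those pairs. The count for the diet averaged over genotypes was 1, Col3a1, under both scalings and without either pair. Leaving out 1 library gave 0 to 1 for the diet in WT, 0 to 1 for the diet in iKO, 0 to 1 for the genotype averaged over diets and 2 to 6 for the diet averaged over genotypes, with 6 without RT9 and 4 without RT8 or RT14.

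Signs turned for the diet in iKO of Col16a1 (0.0074 and 0.0027 with pseudocounts 0.1 and 0.25, 0.045 and 0.050 under median-of-ratios and upper-quartile scaling, 0.087 with sample weights, 0.14 without RT1 and RT4, 0.16 without RT4 and RT7), of Col14a1 (0.047 and 0.055 under them, 0.11 with weights, 0.19 without either pair) and of Col1a2 (0.065 without RT1 and RT4, 0.10 without RT4 and RT7). Col4a1 turned on chow (-0.0090 and -0.0035 under the scalings, -0.054 without RT4 and RT7) and, under upper-quartile scaling, on HFD (-0.0011), for the diet in WT (0.0022) and for the diet in iKO (0.0046, and 0.014 without RT4 and RT7). Leaving out 1 library moved the diet in iKO from -0.083 to 0.19 for Col8a1, -0.084 to 0.14 for Col16a1, -0.24 to 0.065 for Col1a2 and -0.21 to 0.19 for Col14a1, and Col4a1 from -0.033 to 0.11 on chow and -0.022 to 0.18 on HFD. The interaction had 14 of 22 collagens below 0, and without RT4 and RT7 19 of 21 above 0. No paired analysis was possible, because the labels do not give the litter of each mouse and each library number is used once.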
